A study of Callithrix jacchus with 3 samples.

Results

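Genes used as markers of the trophoblast, the outer lineage that builds the placenta, were read in RNA sequencing libraries of common marmoset (Callithrix jacchus) EPSC-like cells. EPSC stands for extended pluripotent stem cell, a state sought in this study by converting marmoset embryonic stem cells. The list named 9 genes by symbol: the keratin genes KRT7, KRT8, KRT18 and KRT19, and the regulator genes VGLL1, OVOL1, ELF5, TP63 and GATA2. Of these, 5 were matched through their Ensembl gene ID to a row among the 30811 genes counted: KRT7 (ENSCJAG00000017950), VGLL1 (ENSCJAG00000003722), OVOL1 (ENSCJAG00000001957), TP63 (ENSCJAG00000014256) and GATA2 (ENSCJAG00000011732). KRT8, KRT18 and KRT19 were matched to no ID and ELF5 to an ID without a row, so these 4 were not analysed here. All 5 matched genes had counts, and 4 of them, all but TP63, passed a filter on low counts (edgeR filterByExpr).

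The 3 libraries form 1 group of replicates, with no parental stem cells, trophoblast or other control. The titles of the 3 share a prefix that the labels do not explain, and no label names more than 1 source line or animal. The labels give neither passage, culture medium nor treatment, and no label says that each library is its own culture. A p-value over the 3 therefore covers the spread among these libraries alone, and that spread may be technical. Total counts were 40593244 to 55224475 per library. Replicate 3 stood apart from the others: 47.5% of genes differed between it and replicate 1 and 48.1% between it and replicate 2, against 7.24% between replicates 1 and 2 (exact conditional binomial test, Benjamini-Hochberg adjusted). Of 12 core pluripotency genes listed, 9 were matched, and 9 of 9 were above 1 CPM (count per 1000000 counts). Among tested genes with a symbol, 78.3% were. With no parental stem cells to compare, these genes cannot tell EPSC-like cells from other pluripotent cells. Summed levels of the 9 were 6630, 6832 and 6527 CPM in replicates 1, 2 and 3, of which DNMT3B made up 2628, 2703 and 2734 CPM. Single genes moved both ways, with 4 lower and 4 higher in replicate 3 than in replicate 1, beside 25.8% and 21.8% of all genes. LIN28A and SALL4 were 1.92-fold and 2.30-fold lower there. Here and below, shares over all genes include genes of few counts, whose small differences are seldom called. Such shares are no matched yardstick for lists of well-counted genes.

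Keratins are the intermediate filament proteins of epithelia. An acidic type I chain, such as the product of KRT18 or KRT19, pairs with a basic type II chain, such as that of KRT7 or KRT8, and filaments form only from such pairs. Simple keratins mark the trophectoderm, the first epithelium of the embryo, and KRT7 is a usual stain for trophoblast in primates. VGLL1 encodes a cofactor of the TEAD transcription factors, GATA2 a zinc finger factor that acts in trophoblast and in blood and endothelium, OVOL1 a zinc finger repressor that guides trophoblast progenitors toward the syncytium, and TP63 a transcription factor found in cytotrophoblast and in basal epithelia.

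KRT7, GATA2 and OVOL1 were above 1 CPM, TP63 was below it, and VGLL1 was not distinguished from it. The tests were those of edgeR's quasi-likelihood F statistic over the 3 libraries, Benjamini-Hochberg adjusted over the 23432 genes with counts. The 3 of 5 above the level compare with 56% of all genes tested, and the 1 of 5 below it with 37.8%, and with 78.3% and 16.1% of the tested genes that have a symbol, so these counts set the members apart in no direction. VGLL1 was in the class that held 6.2% of all genes. KRT7 ranged from 7.80 to 9.86 CPM, with replicate 3 the highest. GATA2, OVOL1 and VGLL1 were lower in replicate 3 than in either other library, from 2.97-fold for OVOL1 to 14.2-fold for GATA2. Values are CPM scaled with TMM factors, which do not correct for gene length, and no transcript lengths were used, so levels of different genes are not ranked here. In bulk RNA, fewer cells that express a gene and less RNA per cell cannot be told apart.

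**Figure D1:**
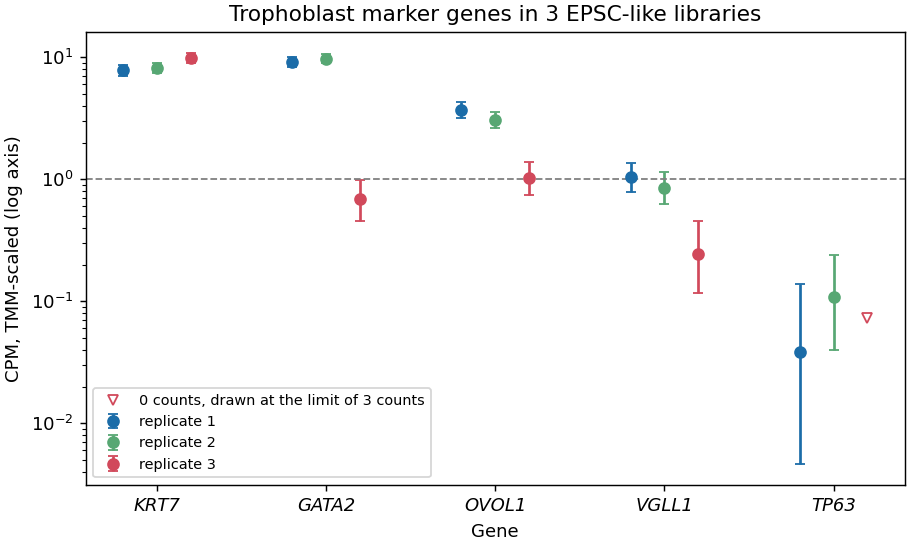
Level of each matched gene in CPM (log axis) in replicates 1, 2 and 3; bars are exact 95% Poisson intervals for counting error, the dashed line is 1 CPM, and the open triangle marks 0 counts drawn at the limit of 3 counts. KRT7 stays between 7.80 and 9.86 CPM, while GATA2, OVOL1 and VGLL1 are lowest in replicate 3.

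KRT7, the one keratin of the list that could be read, had 408, 453 and 402 counts in replicates 1, 2 and 3, or 7.80, 8.24 and 9.86 CPM. Replicate 3 was the highest and not the lowest library for this gene. The mean of 8.63 ± 1.08 CPM (SD, n = 3) was above 1 CPM (edgeR quasi-likelihood, adjusted p = 2.05e-08). Its coefficient of variation of 12.6% exceeded that of 49.1% of the 13701 genes that averaged at least 50 counts, so it was neither a stable nor an unstable gene among them. KRT7 was 1.26-fold higher in replicate 3 than in replicate 1 (95% interval 1.10 to 1.45, adjusted p = 0.00261, exact conditional binomial test). Against replicate 2 it was 1.20-fold higher (1.04 to 1.37, adjusted p = 0.0220), a call lost with halved counts, which would be right if the 2 mates of a pair were each counted (adjusted p = 0.138). Such tests compare single libraries and no conditions. In replicate 3, 21.8% and 22% of all genes were called higher than in replicates 1 and 2.

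GATA2 changed most. Its counts were 477, 537 and 28, or 9.12, 9.77 and 0.687 CPM, so that replicates 1 and 2 were close and replicate 3 lay far under both. The mean of 6.52 ± 5.07 CPM (SD, n = 3) has an SD almost as large as itself and describes no single library. The gene was above 1 CPM over the 3 libraries (edgeR quasi-likelihood, adjusted p = 0.000669), although the interval of replicate 3 alone, 0.456 to 0.992 CPM, ended under that level. Between libraries it was 13.3-fold lower in replicate 3 than in replicate 1 (95% interval 9.07 to 20.2, adjusted p = 1.76e-82, exact conditional binomial test). Against replicate 2 it was 14.2-fold lower (9.73 to 21.6, adjusted p = 2.14e-91). Among genes that averaged at least 50 counts, 0.102% had a lower ratio of replicate 3 to replicate 1.

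OVOL1 had 194, 168 and 42 counts, or 3.71, 3.06 and 1.03 CPM. Replicate 3 was again the lowest library, at about the reference level itself. The mean was 2.60 ± 1.40 CPM (SD, n = 3), above 1 CPM by edgeR quasi-likelihood (adjusted p = 0.00294) but not by DESeq2 (adjusted p = 0.132). It was 3.60-fold lower in replicate 3 than in replicate 1 (95% interval 2.57 to 5.15, adjusted p = 2.92e-16, exact conditional binomial test) and 2.97-fold lower than in replicate 2 (2.10 to 4.27, adjusted p = 3.87e-11).

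VGLL1 had 55, 47 and 10 counts, or 1.05, 0.855 and 0.245 CPM. Replicates 1 and 2 lay at the reference level, and replicate 3 lay under it with an interval of 0.118 to 0.451 CPM. Over the 3 libraries the mean of 0.717 ± 0.420 CPM (SD, n = 3) was not distinguished from 1 CPM (edgeR quasi-likelihood, adjusted p = 0.281). The gene was 4.29-fold lower in replicate 3 than in replicate 1 (95% interval 2.16 to 9.43, adjusted p = 7.27e-06, exact conditional binomial test) and 3.49-fold lower than in replicate 2 (1.74 to 7.74, adjusted p = 0.000324). With so few counts its fold is known less well than those of GATA2 and OVOL1.

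TP63 was at the edge of detection, with 2, 6 and 0 counts, or 0.0382, 0.109 and 0 CPM. A count of 0 in replicate 3 allows up to 0.0736 CPM, taken as 3 counts and for counting error only. The gene was below 1 CPM by edgeR quasi-likelihood (adjusted p = 0.00541) and not by DESeq2 (adjusted p = 0.152). No difference between libraries was detectable at this depth (adjusted p = 0.700 for replicate 2 against 1, and 0.777 and 0.131 for replicate 3 against 1 and 2, exact conditional binomial test).

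**Figure D2:**
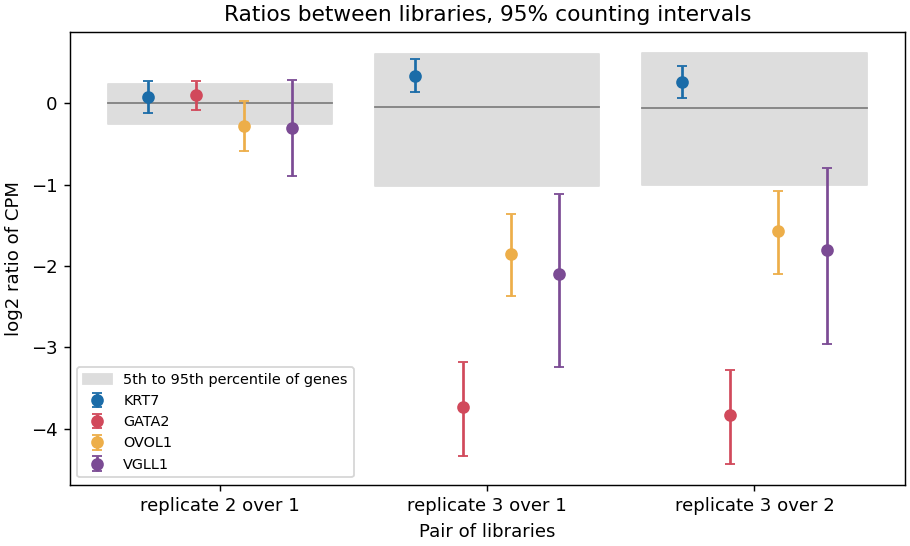
Log2 ratio of CPM between pairs of libraries for KRT7, GATA2, OVOL1 and VGLL1, with exact 95% counting intervals; grey boxes span the 5th to 95th percentile of the 13701 genes that averaged at least 50 counts and the grey line is their median. TP63 is left out because it has 0 counts in replicate 3. Between replicates 1 and 2, OVOL1 and VGLL1 lie just under the box, with intervals that reach into it. In both ratios of replicate 3, GATA2, OVOL1 and VGLL1 lie under the box and KRT7 inside it.

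Counted together, replicate 3 had lower levels of 3 of the 5 genes than replicate 1, where 25.8% of all genes were lower, and of 3 of the 5 than replicate 2, where 26.1% were. The same 3 also differed by at least 1.5-fold, as did 10.5% and 10.6% of all genes in that direction. KRT7 was the 1 gene called higher, and by less than 1.5-fold, while 6.39% and 6.87% of all genes were higher by at least that. The 5 genes were chosen with earlier results of these data known, so such counts describe them and test no excess. Between replicates 1 and 2 none of the 5 was called different by the exact conditional binomial test (0 also at an unadjusted p under 0.05), where 3.93% of all genes were called higher and 3.31% lower in replicate 2. Intervals for that pair were 0.945 to 1.21 for the ratio of GATA2, 0.922 to 1.21 for KRT7, 0.666 to 1.02 for OVOL1 and 0.539 to 1.22 for VGLL1. A ratio within a library needs no scaling between libraries. For every 100 counts of KRT7 there were 117, 119 and 6.97 counts of GATA2 in replicates 1, 2 and 3. OVOL1 had 47.5, 37.1 and 10.4 counts and VGLL1 13.5, 10.4 and 2.49 counts for every 100 of KRT7. KRT7 and the 3 regulator genes thus did not change in the same proportion.

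Few other keratins were read. Of 29 keratin genes in the name table, 17 had a row, and 2 of these were above 1 CPM, 1 was not distinguished, 8 were below and 6 had no counts. Those above were KRT7 and KRT12, a keratin known from the cornea, at 4.25 ± 0.311 CPM (SD, n = 3). KRT80, which is broadly expressed in epithelia, was not distinguished at 1.07 ± 0.343 CPM. The basal epithelial keratin gene KRT14 had 0, 2 and 4 counts, and the intestinal one, KRT20, stood at 0.342 ± 0.131 CPM. KRT24, KRT25, KRT32, KRT39, KRT74 and KRT81 had no counts. The 2 keratin genes above 1 CPM and the 8 below it compare with 78.3% and 16.1% of the tested genes with a symbol, all of which had counts. The median of the 11 keratins with counts was 0.216 CPM, against 3.26 CPM over all genes with counts and 17.4 CPM over those that also have a symbol. Calls below 1 CPM depend on the tool: of 24 such genes over all lists, 22 were not distinguished from it by DESeq2, and 8 of 88 calls above were lost as well. Keratins share sequence with each other, and how reads that map to several places were treated is not given in the sources used here, so these levels are uncertain where copies are close.

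Genes whose products anchor keratin filaments were above 1 CPM in 11 of 12 matched cases, beside 78.3% of all tested genes with a symbol. DSC2, a desmosomal cadherin gene, was not distinguished from that level at 0.623 ± 0.217 CPM (SD, n = 3). DSP, which encodes desmoplakin, the link from desmosomes to keratin, stood at 688 ± 111 CPM. DSG2, another desmosomal cadherin gene, stood at 142 ± 61.2 CPM and was 2.49-fold lower in replicate 3 than in replicate 2 (95% interval 2.39 to 2.60). PLEC, which encodes the cytolinker plectin, stood at 138 ± 27.0 CPM. Of the 12 genes, replicate 3 had 9 at a lower and 1 at a higher level than replicate 1, and 7 at a lower and 2 at a higher level than replicate 2 (exact conditional binomial test). Of all genes, 25.8% and 21.8% were lower and higher against replicate 1, and 26.1% and 22% against replicate 2. Those shares include genes of few counts, while 11 of these 12 genes averaged at least 50 counts. An excess over the shares can therefore come from depth alone. EVPL, which encodes envoplakin, was the gene higher than in replicate 1.

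VGLL1 was the 1 gene of its list that was not distinguished from 1 CPM. All 4 TEAD genes, whose products bring such cofactors to DNA, were above 1 CPM, as were the cofactor genes YAP1, WWTR1 and VGLL4, and VGLL2 had no counts. These 7 of 9 matched genes stand beside 78.3% of tested genes with a symbol, so the count does not set the list apart. TEAD1 levels were 56.1, 57.4 and 18.5 CPM in replicates 1, 2 and 3, and the gene was 3.03-fold lower in replicate 3 than in replicate 1 (95% interval 2.79 to 3.28). TEAD4, a regulator of the trophectoderm in mice, stood at 41.0 ± 2.44 CPM (SD, n = 3). VGLL4, which encodes a cofactor that opposes YAP, was the 1 of the 9 matched genes called higher in replicate 3 than in replicate 1, and 6 were called lower. Among all genes, 21.8% were called higher and 25.8% lower, shares that include genes of few counts. Of the 9 matched genes, 7 averaged at least 50 counts.

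OVOL1 and its relative OVOL2 moved in opposite directions. OVOL2, a repressor gene that keeps epithelia from turning mesenchymal, had 785, 921 and 853 counts, or 15.0, 16.7 and 20.9 CPM. It was higher in replicate 3 than in replicate 1 (1.39-fold, adjusted p = 1.07e-10) and replicate 2 (1.25-fold, adjusted p = 1.16e-05, exact conditional binomial test), where OVOL1 was lower. These differences of OVOL2 were under 1.5-fold, while those of OVOL1 were larger. OVOL3 was not distinguished from 1 CPM, at 1.27 ± 0.461 CPM (SD, n = 3). Among tested genes with a symbol, 78.3% were above 1 CPM and 16.1% below. Of the 13 matched genes of the epithelial state list, 10 were above 1 CPM and none below. They included the epithelial adhesion genes EPCAM and CDH1 at 878 ± 133 and 656 ± 102 CPM. The mesenchymal regulator gene ZEB1 had 50, 45 and 17 counts, and SNAI2 had 126, 88 and 18. Both of these were not distinguished from 1 CPM over the 3 libraries. Other mesenchymal genes of the list were above it, namely ZEB2 at 9.04 ± 1.09 CPM and CDH2, the N-cadherin gene, at 8.52 ± 4.74 CPM. CDH2 was 3.45-fold lower in replicate 3 than in replicate 1. SNAI2 was above it without replicate 3 (log2 level 0.996, adjusted p = 7.53e-13, edgeR quasi-likelihood with each gene's own spread ignored).

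GATA6, the endoderm regulator gene, had values close to those of its family member GATA2. It had 383, 443 and 20 counts, or 7.32, 8.06 and 0.490 CPM, and was 14.9-fold lower in replicate 3 than in replicate 1 (95% interval 9.53 to 24.7). GATA4 did not follow them, with 4.13, 4.62 and 3.87 CPM and no call between any libraries. The cofactor gene ZFPM1 was above 1 CPM at 2.39 ± 0.514 CPM (SD, n = 3) by edgeR quasi-likelihood but not by DESeq2 (adjusted p = 0.167). ZFPM2 was below it at 0.607 ± 0.205 CPM, a call that edgeR quasi-likelihood no longer made when replicate 1 or 2 was left out (adjusted p = 0.285 and 0.105). GATA2 also marks blood and endothelium. Of 8 matched markers of those cells, 3 were above 1 CPM, 1 was not distinguished and 4 were below by edgeR quasi-likelihood. Among tested genes with a symbol, 78.3% were above and 16.1% below. DESeq2 kept 1 call among the 8 markers, that of PECAM1 above. Their summed levels were 122, 128 and 71.5 CPM, most of it PECAM1 at 101 ± 30.5 CPM, which was 1.77-fold lower in replicate 3 than in replicate 1. CDH5, a defining gene of endothelium, had 4, 4 and 5 counts, and PTPRC, that of leukocytes, had 2, 4 and 0. Their part in the GATA2 difference was not tested.

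**Figure D3:**
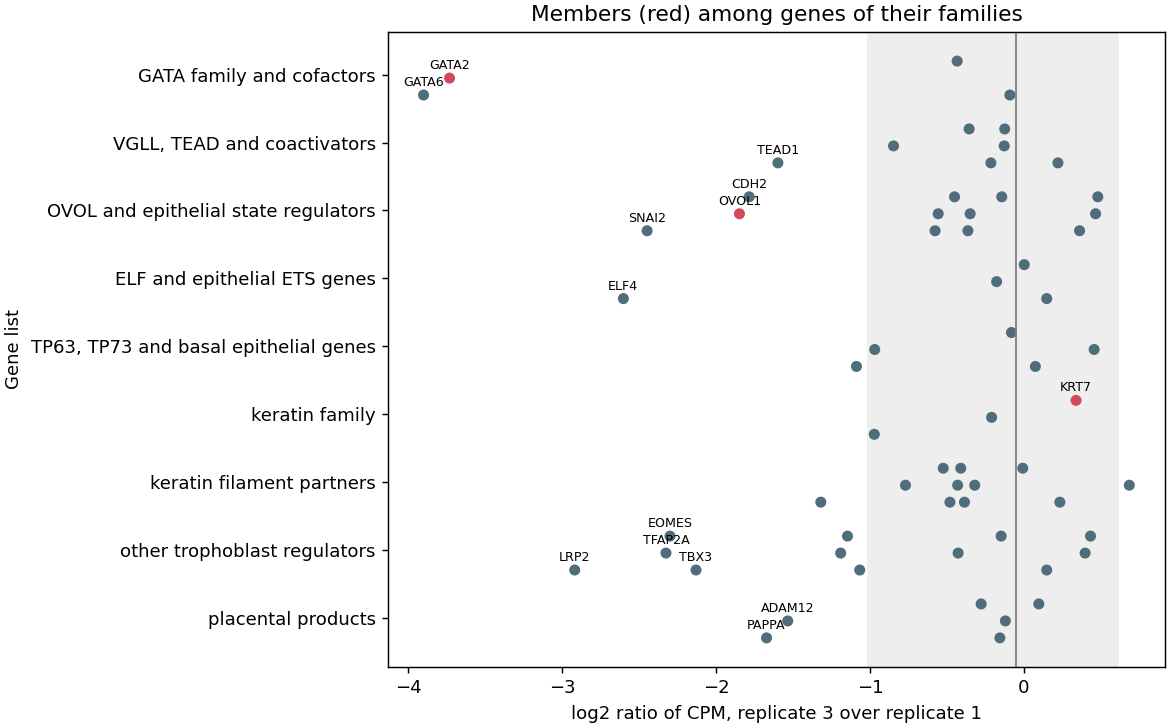
Log2 ratio of CPM, replicate 3 over replicate 1, for genes that averaged at least 50 counts, in 9 lists (rows; vertical offsets only separate points); red points are members, the grey band is the 5th to 95th percentile of all such genes and the line their median, and the members and the genes farthest to the left are named. VGLL1 and TP63 are absent because their means are under 50 counts. GATA2 and GATA6 lie at the far left and KRT7 at the right of the median.

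TP73, the gene of a factor related to TP63, was not distinguished from 1 CPM at 0.943 ± 0.408 CPM (SD, n = 3), while TP63 was below it. TP73 had 32, 45 and 57 counts and was higher in replicate 3 than in replicate 1 (adjusted p = 0.000558, exact conditional binomial test). It was below 1 CPM without replicate 3 (adjusted p = 0.0439, edgeR quasi-likelihood with each gene's own spread ignored). Among tested genes with a symbol, 78.3% were above 1 CPM and 16.1% below. Of 10 matched genes on the list of TP63, TP73 and basal epithelium, 5 were above 1 CPM and 4 below. Those below included KRT14 and DSG3, a desmosomal gene of stratified epithelium with 8, 17 and 8 counts. Epidermal markers summed to 0.191, 0.527 and 0.343 CPM over 4 matched genes, all of them below 1 CPM by edgeR quasi-likelihood and none by DESeq2. Of the ETS factor genes related to ELF5, ELF1 and ELF2 stood at 30.7 ± 0.747 and 28.6 ± 1.79 CPM. ELF4 had 148, 132 and 19 counts. EdgeR quasi-likelihood no longer called it above 1 CPM when replicate 1 was left out (adjusted p = 0.109) or with filterByExpr (adjusted p = 0.0884). DESeq2 did not call it above either (adjusted p = 0.407). EHF, an epithelial member, had no counts.

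Of the other trophoblast regulators listed, 16 of 24 were matched, and 9 of these were above 1 CPM, 6 not distinguished and 1 below. Among tested genes with a symbol, 78.3% were above and 16.1% below. TFAP2C, which acts in trophectoderm and in germ cells, stood at 35.9 ± 7.19 CPM (SD, n = 3) and KLF5 at 26.7 ± 4.04 CPM. Most of the list was lower in replicate 3. Of the 16, 11 were lower than in replicate 1 and 2 higher (exact conditional binomial test), and 11 were lower than in replicate 2 and 3 higher. Against replicate 1, 25.8% of all genes were lower and 21.8% higher, and against replicate 2, 26.1% and 22%. The median log2 ratio of replicate 3 to replicate 1 was -1.11 over the 12 listed regulators with a mean of at least 50 counts, against -0.05 over all such genes. The list was chosen with earlier results of these data known, so these values describe it and test no excess. TFAP2A stood at 12.3, 12.1 and 2.45 CPM and TBX3 at 6.44, 7.27 and 1.47 CPM. EOMES, a gene of trophoblast and of the primitive streak, had 120, 146 and 19 counts, and was above 1 CPM when replicate 1 or replicate 3 was left out (adjusted p = 0.0419 and 1.46e-25, edgeR quasi-likelihood with each gene's own spread ignored). CDX2, a founding regulator of the trophectoderm, had 25, 29 and 0 counts. It was not distinguished from 1 CPM over the 3 libraries (adjusted p = 0.0809) and was below it without replicate 1, 2 or 3 (adjusted p = 0.00825, 0.00897 and 0.000699, edgeR quasi-likelihood with the same limit). DLX5 had 37, 37 and 0 counts. DLX3 and PPARG, which act in placental differentiation, were not distinguished from 1 CPM and were above it when replicate 3 was left out (edgeR quasi-likelihood with the same limit, adjusted p = 0.000457 and 0.00526). The genes called higher in replicate 3 than in replicate 1 were ETS2 and KLF5.

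Products of the differentiated placenta were split as well. Among tested genes with a symbol, 78.3% were above 1 CPM and 16.1% below. Of 12 matched products, 6 were above 1 CPM, 5 below and CYP19A1, which encodes the aromatase that makes placental estrogen, had no counts. Those above were TFPI2, SLC13A4, ADAM12, PGF, PAPPA and HTRA4, from 39.4 ± 1.31 CPM for the protease inhibitor gene TFPI2 to 4.07 ± 0.717 CPM for HTRA4 (SD, n = 3). PAPPA, the gene of a protease that cleaves insulin-like growth factor binding proteins, was 2.90-fold lower in replicate 3 than in replicate 2 (95% interval 2.33 to 3.65). ADAM12, another metalloprotease gene, was 2.87-fold lower (2.40 to 3.44). These were the 2 of 12 called lower than in replicate 2 (exact conditional binomial test). Another 2 were called higher, HTRA4 by 1.28-fold and SLC13A4 by 1.12-fold, where 26.1% and 22% of all genes were lower and higher. Against replicate 1, 3 were lower and none higher, where 25.8% and 21.8% of all genes were. PAPPA2 and LVRN, known from invading trophoblast, had 0, 6 and 0 and 2, 2 and 4 counts.

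**Figure D4:**
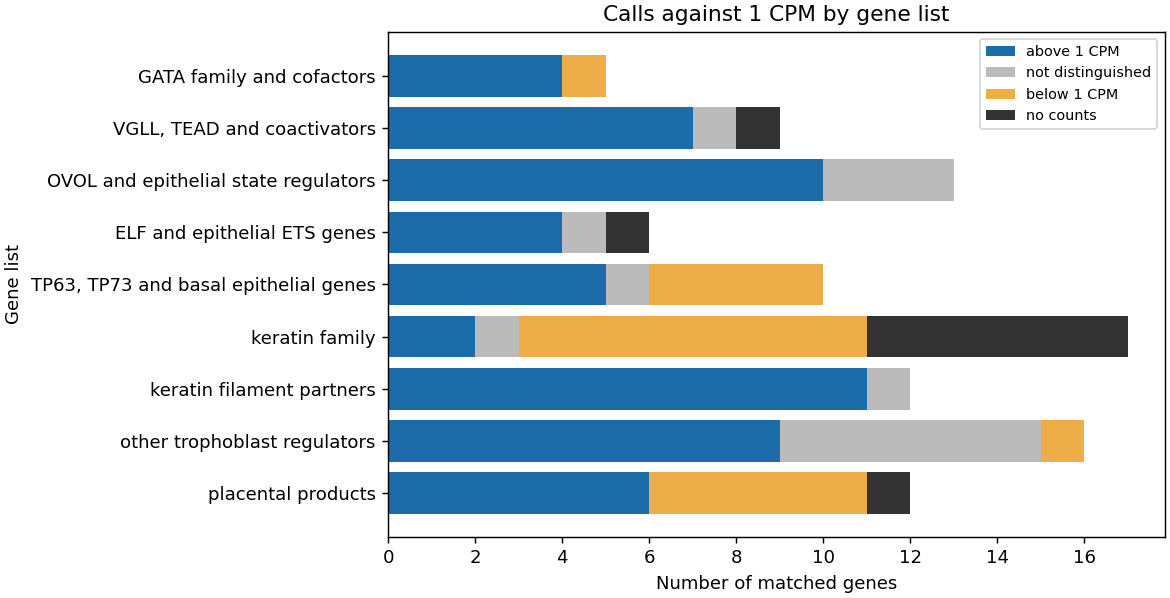
Number of matched genes in each list that were above 1 CPM, not distinguished from it, below it or without counts (stacked bars, edgeR quasi-likelihood). Keratin genes are mostly below 1 CPM or without counts, with 2 of 17 above, and the filament partners mostly above, with 11 of 12. Of tested genes with a symbol, 78.3% were above.

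Several of these genes are shared with other lineages, some of whose markers also differed between libraries. Amnion markers summed to 20.0, 18.9 and 9.0 CPM in replicates 1, 2 and 3 over 6 matched genes, of which 2 were above 1 CPM, and 1, BAMBI, with DESeq2. VTCN1, a marker of amnion and trophoblast, had 54, 74 and 1 counts, while TNFRSF11B had 44, 54 and 33 and no call between libraries. Endoderm markers summed to 18.7, 19.7 and 9.32 CPM over 6 matched genes, 3 of them above 1 CPM, with AFP without counts. Fibroblast and mesenchyme markers summed to 889, 840 and 674 CPM, and 8 of 8 were above, beside 78.3% of tested genes with a symbol. Most of that sum was COL1A1 at 546, 516 and 404 CPM. DCN, a proteoglycan gene of connective tissue, had 484, 534 and 40 counts, while TAGLN stood at 63.7, 61.0 and 62.0 CPM. Lower in replicate 3 than in replicate 1 were 4 of 6 amnion, 3 of 6 endoderm and 7 of 8 fibroblast markers. Among all genes, 25.8% were (exact conditional binomial test), a share that includes genes of few counts, while all 8 fibroblast markers averaged at least 50. These lists were also chosen with earlier results of these data known, so the counts describe them and test no excess. The part of these markers in the differences of GATA2, OVOL1 and VGLL1 was not tested.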

How the data were processed

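RNA was measured in 3 libraries of 1 group. The submitters' processing notes name featureCounts 1.5.2, STAR 2.5.3a and Trim Galore 0.4.0. Not given in the sources used here are the genome build, annotation, strand setting and treatment of shared reads. The authors deposited raw counts per Ensembl gene ID. IDs were named through a name table, which matched 12660 of 30811 rows. Members and lists (216 entries, 203 genes, 143 matched) were chosen with earlier results of these data known, and 1 gene is not reported here.

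Scaling used TMM factors (edgeR 4.0.16 with limma 3.58.1 in R 4.3.3). The 23432 genes that had any count were compared with 1 CPM by the F statistic of an intercept-only quasi-likelihood fit, computed from the deviances, two-sided, with a call at an adjusted p under 0.05. Pairs of libraries were compared by a two-sided exact conditional binomial test with exact 95% intervals. Both were Benjamini-Hochberg adjusted and tried on simulated data. Simulated pairs held counting error alone, so they cannot show how the pair test behaves where libraries vary beyond it. No unique molecular identifiers are mentioned, so intervals cover counting error only. The alternatives were DESeq2 1.42.0 and its size factors, total counts, filterByExpr, each replicate left out, halved counts, a mean of at least 50 counts, a 1.5-fold minimum and, chosen after seeing the data, replicates 1 and 2 summed. Named genes were the members and, of each list, the 3 highest, the 2 lowest, those without counts and those whose call depended on 1 library; others named were chosen after their values were seen, and not every gene under the rule is printed. Python 3.11.15 and matplotlib 3.10.9 drew the figures.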

Additional observations from a re-analysis of the deposited data

How the results depend on the processing

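No paired analysis was possible because the 3 libraries belong to a single group. Ratios of type II to type I keratins were not run, since they need KRT8, KRT18 and KRT19. The count of members above 1 CPM was 3 in each edgeR setting and with each replicate left out (range 3 to 3), and 2 with DESeq2, where OVOL1 lost its call (log2 level 1.37). The count below 1 CPM was 1 in each fit with a replicate left out, and 0 with DESeq2 (TP63 log2 level -4.35, adjusted p = 0.152) and with filterByExpr, which drops TP63 before testing. Fits on 2 libraries, and that on replicates 1 and 2 summed, use the trended spread and ignore a gene's own. List genes above 1 CPM numbered 88, 88 to 93 with a replicate left out, 80 with DESeq2 and 87 with filterByExpr. With DESeq2 the amnion list kept 1 of 2 and the blood and endothelium list 1 of 3 genes above. All genes below 1 CPM numbered 8851, but 1608 with DESeq2 and 1242 with filterByExpr. Members lower in replicate 3 numbered 3 against either other replicate, and 2 among genes that averaged at least 50 counts, which leaves out VGLL1. KRT7 was the 1 member higher in replicate 3, and the count was 0 against replicates 1 and 2 with a 1.5-fold minimum, and 0 against replicate 2 with halved counts. Under the 3 scalings the ratio of KRT7 in replicate 3 to replicate 1 was 1.26, 1.27 and 1.28. Depth limits TP63 and VGLL1 most.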

Other observations

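Genes beside the members in the RefSeq gene order (assembly calJac240_pri, used for order alone) were read after the members' values were seen, taking the 2 nearest named genes on each side. Not all of them are printed. The neighbours of GATA2 differed little in replicate 3, although RPN1 was called lower than in replicates 1 and 2 (adjusted p = 6.89e-08 and 8.21e-07, exact conditional binomial test). RPN1 and RAB7A on one side had a log2 ratio of replicate 3 to replicate 1 of -0.07 and -0.02, and EEFSEC and RUVBL1 on the other 0.09 and -0.01, against -3.73 for GATA2. The neighbours of OVOL1, which are RNASEH2C, KAT5, SNX32 and MUS81, had ratios of 0.29, 0.16, 0.25 and 0.56, against -1.85 for OVOL1. HTATSF1 beside VGLL1 had a ratio of 0.16, and ARHGEF6 -0.70. Beside TP63, LPP levels were 23.4, 23.9 and 8.14 CPM in the 3 libraries, and TPRG1 and CLDN16 had no counts. KRT7 lies in the type II keratin cluster, with KRT80 adjacent and ATG101 beyond it. KRT80 was lower in replicate 3 than in replicate 1, with a ratio of -0.97 against 0.34 for KRT7 (adjusted p = 0.00515, exact conditional binomial test), and ATG101 had a ratio of 0.22. On the other side the nearest named genes were KRT82 and KRT75, with 6 and 7 genes between, and both were below 1 CPM by edgeR quasi-likelihood and not by DESeq2.

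Likeness was measured as the distance between the 2 log2 ratios, replicate 2 over 1 and replicate 3 over 1, among 9816 named genes that averaged at least 50 counts. Over 3 libraries such likeness is weak. KRT7 had 1718 genes within a distance of 0.2, with NINL, CABIN1 and SLC2A6 nearest at 0.00358, 0.00770 and 0.00871. OVOL1 had 11, with PAX7, LRP1B and CACNA1D nearest at 0.0444, 0.0704 and 0.108. GATA2 had 3, which were ANKRD1, GATA6 and SLCO4C1 at 0.168, 0.173 and 0.182. These genes had 13, 20 and 12 counts in replicate 3, and the fold of GATA2 against replicate 1 had an interval of 9.07 to 20.2. Counting error there is wider than a distance of 0.2, so neither their order nor their number is resolved. The numbers within 0.2 also reflect how few genes have such ratios.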
